A study of Homo sapiens with 18 samples.

Results

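Transcripts of 10 enzymes that make deoxynucleotides and pyrimidines were followed in 2 human bladder cancer cell lines, RT112 and J82, treated with palbociclib, which blocks CDK4 and CDK6, the kinases that open the way into S phase. The genes were TYMS, TK1, DTYMK, DUT, RRM2, DCK, CAD, UMPS, DHODH and CTPS1, and all 10 of them were found among the 22465 genes that the arrays measured with a single symbol. Each had 1 transcript cluster row with a single symbol, so no choice between such rows was needed. Rows with several symbols were not used. The 4 groups were RT112 cells given palbociclib at its IC50, RT112 cells given PBS as the control, J82 cells given palbociclib at its IC50 and J82 cells given PBS. Each group held 3 dishes with 1 whole-transcript array each, and the concentration and length of exposure are not given in the sources used here. Both are established lines grown in culture with serum, and p-values measure the spread between dishes within a line, pooled over the 2 lines. No spread between lines enters them. The 5637 arrays of the same study were not used, because their values correlated with those of J82 at only r = 0.027 over 67528 rows, against r = 0.94 between RT112 and J82.

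A cell entering S phase needs all the precursors of DNA. Ribonucleotide reductase, whose regulatory subunit is RRM2, turns ribonucleotides into deoxynucleotides, and DUT strips dUTP to dUMP, which keeps uracil out of DNA. TYMS methylates dUMP to dTMP with a folate cofactor, TK1 makes dTMP from salvaged thymidine, and DTYMK phosphorylates dTMP on the way to dTTP. DCK salvages deoxycytidine and other deoxynucleosides. Upstream of them the de novo pathway runs from CAD, which carries the first steps, through the mitochondrial enzyme DHODH to UMPS, which makes UMP, and CTPS1 converts UTP to CTP. TYMS, TK1, RRM2 and DUT are known as genes that rise at the G1/S boundary through E2F transcription factors, which RB holds back until CDK4 and CDK6 phosphorylate it. TYMS is also the target of fluoropyrimidine drugs, and DCK activates gemcitabine, a drug used in bladder cancer.

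The promoters are shown because E2F factors, named above for 4 of the genes, act on promoters. The set holds genes that fell and genes that were not called, and E2F binding was not measured here. RefSeq (GRCh38.p14) gave 16 start sites for the 10 genes. The 250 bases upstream of each were searched on both strands for words of an E2F site, which were TTCCCGC and its variant TTGGCGC, then the word TTCGCGC and the word TTGCCGC. The same windows were searched for the CCAAT word and for the TTTGAA word, the core of the cell cycle homology region. Capitals below mark these 3 kinds of word, and the sequences run 5′ to 3′ on the gene's own strand.
TYMS (chr18:657403-657652, plus strand): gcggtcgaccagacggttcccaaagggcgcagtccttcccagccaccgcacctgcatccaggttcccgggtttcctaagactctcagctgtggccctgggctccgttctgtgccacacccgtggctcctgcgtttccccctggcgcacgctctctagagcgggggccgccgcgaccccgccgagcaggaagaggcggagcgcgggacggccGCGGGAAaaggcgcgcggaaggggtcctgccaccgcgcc
TK1 (chr17:78187053-78187302, minus strand): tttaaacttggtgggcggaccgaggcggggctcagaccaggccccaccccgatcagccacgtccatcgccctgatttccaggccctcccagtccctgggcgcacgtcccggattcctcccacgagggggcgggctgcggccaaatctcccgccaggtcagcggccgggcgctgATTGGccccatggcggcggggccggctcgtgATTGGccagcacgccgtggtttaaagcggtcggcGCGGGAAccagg
DTYMK (chr2:241686816-241687065, minus strand): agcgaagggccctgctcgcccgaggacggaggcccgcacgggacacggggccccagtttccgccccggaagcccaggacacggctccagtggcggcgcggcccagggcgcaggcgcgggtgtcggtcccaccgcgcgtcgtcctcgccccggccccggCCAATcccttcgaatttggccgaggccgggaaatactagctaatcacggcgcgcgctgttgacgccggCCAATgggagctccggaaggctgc
DUT (chr15:48331947-48332196, plus strand): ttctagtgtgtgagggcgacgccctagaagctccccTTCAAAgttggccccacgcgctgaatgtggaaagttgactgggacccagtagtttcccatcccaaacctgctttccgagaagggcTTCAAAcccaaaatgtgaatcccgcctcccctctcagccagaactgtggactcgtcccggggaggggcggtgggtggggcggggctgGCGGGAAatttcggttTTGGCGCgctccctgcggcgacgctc
RRM2 (chr2:10122489-10122738, plus strand): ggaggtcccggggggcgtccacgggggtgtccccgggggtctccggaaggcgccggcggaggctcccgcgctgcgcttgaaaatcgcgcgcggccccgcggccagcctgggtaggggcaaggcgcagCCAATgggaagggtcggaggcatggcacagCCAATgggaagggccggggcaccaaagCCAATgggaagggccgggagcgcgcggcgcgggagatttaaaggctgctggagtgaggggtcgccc
DCK (chr4:70993399-70993648, plus strand): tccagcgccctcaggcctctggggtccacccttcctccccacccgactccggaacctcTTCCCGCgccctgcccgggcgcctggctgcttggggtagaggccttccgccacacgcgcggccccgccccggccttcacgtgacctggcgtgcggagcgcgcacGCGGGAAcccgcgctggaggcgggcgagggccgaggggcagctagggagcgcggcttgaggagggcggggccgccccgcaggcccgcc

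An E2F word stood in 5 of the 16 windows, and these 5 belonged to TYMS, TK1, DUT, RRM2 and DCK. Such a word stood in 10.9% of all 35116 windows in the RefSeq table and in 13.2% of the 21181 windows of tested genes. In TYMS the single E2F word ended 33 bases upstream of the start, and in TK1 6 bases upstream, downstream of 2 CCAAT words. DUT had 2 E2F words in the last 42 bases before the start shown. The DUT and TK1 windows that are not shown held no E2F word. CAD, UMPS, DHODH and CTPS1, also not shown, held none either. The RRM2 window shown holds 3 CCAAT words, and the E2F word of RRM2 lies in the window of its other annotated start. DTYMK held 2 CCAAT words and no E2F word, whereas DCK held 2 E2F words and no CCAAT word. A CCAAT word occurred in 6 of the 16 windows and in 32.0% of all windows, and TTTGAA in 2 of 16 (DUT and UMPS) and in 13.3% of all windows. The sequence GGGCGG was present in 11 of 16 windows (42.6% of all), and CACGTG in 2, those of DCK and DHODH (6.34% of all). The E2F words stood at 4 of the 6 genes called lower in RT112 and at 1 of the 4 not called. These counts per gene are uneven, as genes with more start sites had more windows to match. DUT had 4 windows, TK1, RRM2 and CTPS1 had 2 each, and every other gene had 1. A link between the words and the falls was not tested. A word found here is a match of letters and not a measured site.

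Values are log2 intensities as deposited, and differences are palbociclib minus control unless another pair is named. The deposited values reach 19.93, above the 16 of a 16-bit scan, so the scale was stretched and a log2 difference cannot be read as a fold change of RNA. A gene was called where limma, fitted over all 22465 genes and the 12 arrays, gave an adjusted p under 0.05. Standard errors (SE) come from that fit, with n = 3 arrays per group. Median values of the arrays lay between 4.8 and 4.94, except for palbociclib replicate 1 of RT112 at 5.21. Values of the 10 genes in RT112 are given with and without that array. Of 14 epithelial markers, 11 stood above the median gene on every RT112 array, and in J82 8 did under palbociclib and 10 in controls. Between controls 8 of the 14 were higher in RT112 and 2 lower. CDH1 averaged 13.51 in RT112 controls and 5.68 in J82 controls, whereas KRT8 (-2.32) and KRT18 (-1.85) were lower in RT112. Under palbociclib 2 epithelial markers rose in RT112 (KRT5 by 1.2, KRT19 by 1.72) and 2 fell (KRT18 at -1.25, UPK1B at -1.27), while KRT18 (-2.56) and KRT8 (-0.95) fell in J82. The summed log2 level of the 14 ran from 129.1 to 132.8 in treated RT112 and from 130 to 131.4 in its controls, and from 92.44 to 95.66 in treated J82 and from 97.17 to 100.7 in its controls. Of 6 mesenchymal markers 2 fell in RT112 (FN1 and CDH2) and 2 in J82, CDH2 among them (-0.71). Endothelial markers were above the median gene in no group (0 of 4), and of the immune markers only CD68 was (1 of 4). In bulk RNA, fewer cycling cells and less RNA per cell cannot be told apart. The proliferation marker MKI67 differed by -3.71 ± 0.27 in RT112 and by -1.40 ± 0.27 in J82, and E2F1 by -1.53 ± 0.21 in RT112 and 0.01 ± 0.21 in J82. Without palbociclib replicate 1 the RT112 values were -3.39 for MKI67 and -1.49 for E2F1. Both belong to a list of 8 drug target and cell cycle genes. Of these, 6 were called lower in RT112 (3.53% of all genes), with or without that array. In J82 2 were called lower (2.78% of all genes) and 1 higher (5.4%). PCNA differed by -3.53 ± 0.18 in RT112 and 0.15 ± 0.18 in J82, and CDK4 by -1.41 ± 0.23 and 0.93 ± 0.23. CCND1 differed by -0.01 ± 0.21 in RT112 and -1.84 ± 0.21 in J82. The part of these genes in the results below was not tested.

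**Figure D1:**
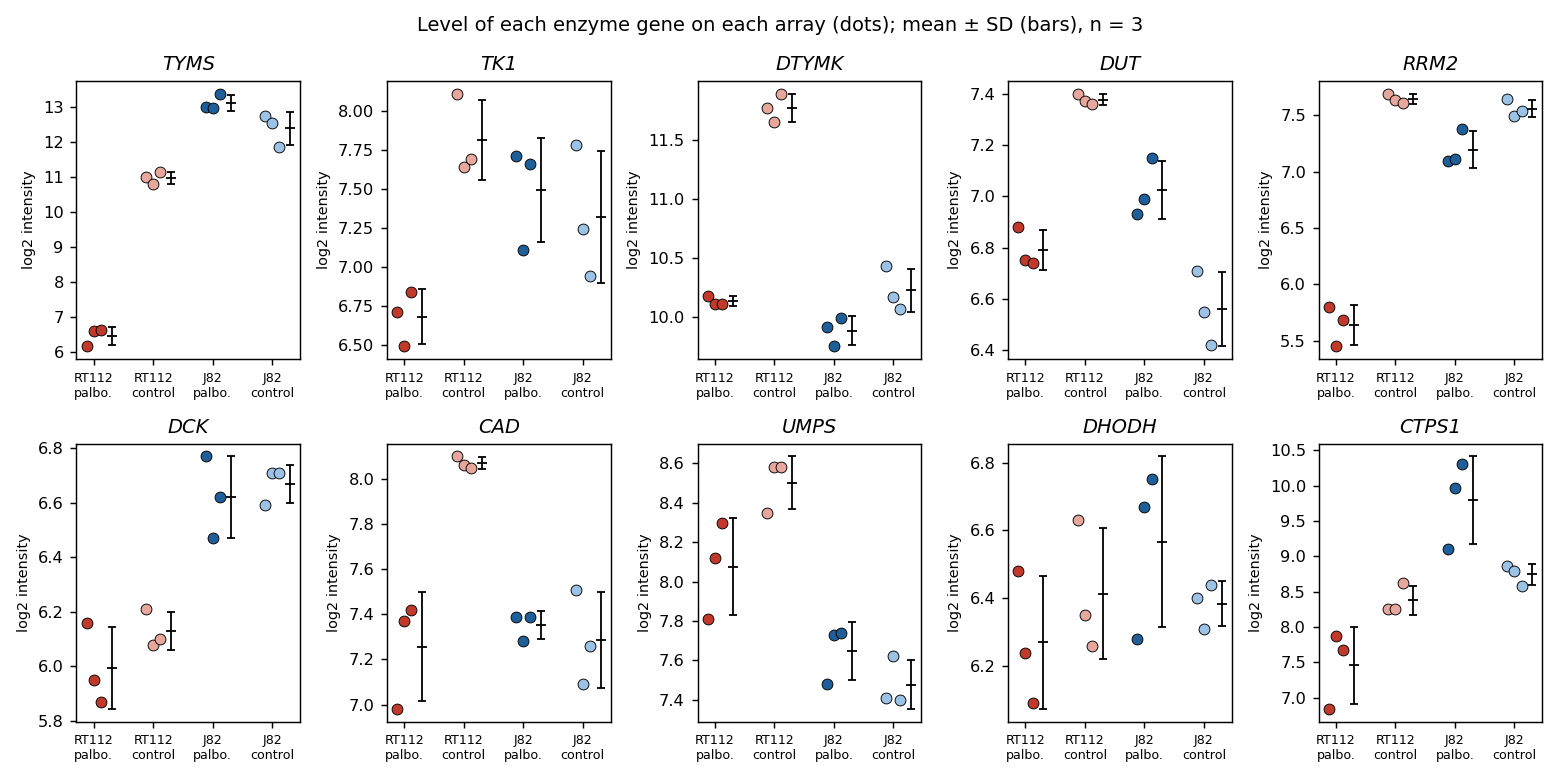
Log2 intensity of the 10 enzyme genes (1 panel each, y axis) in RT112 palbociclib, RT112 control, J82 palbociclib and J82 control cells, with 1 dot per array and the mean ± SD of 3 arrays beside it. TYMS stands between 6.15 and 6.61 in treated RT112 and at 10.79 or above on all other arrays, while the DCK and DHODH dots of treated and control cells overlap in both lines.

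In RT112 cells, palbociclib lowered 6 of the 10 enzyme genes and raised none. The 4 enzymes of thymidylate supply (TYMS, TK1, DTYMK and DUT) all fell, as did RRM2 and CAD, and the other 3 genes of UMP and CTP synthesis were not called. All 10 estimates were below 0 (8 with an unadjusted p under 0.05), with a median of -0.87 over the genes against 0.035 over all genes tested. Across all genes 8.48% were called in this comparison, 3.53% lower and 4.95% higher. The treated and control arrays did not overlap for 8 of the 10, all of them lower. Of all genes 22.8% did not overlap, 8.26% with the treated arrays lower and 14.5% with them higher. Without palbociclib replicate 1, 6 genes were called lower (5.11% of all genes), all 10 had treated arrays below the controls, and their median was -0.65. Fewer treated arrays separate from the controls more easily, and the share of all genes that did so is not given here.

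TYMS, the thymidylate synthase, had levels of 6.15, 6.59 and 6.61 in treated RT112 cells, against 11.01, 10.79 and 11.14 in RT112 controls. No treated array exceeded 6.61 and no control was below 10.79. The difference was -4.53 ± 0.23 (adjusted p = 4.39e-08), the 6th lowest among the 22465 genes, and -4.38 ± 0.25 without palbociclib replicate 1. TK1, the thymidine kinase of the cytosol, stood at 6.71, 6.49 and 6.84 in treated cells, against 8.11, 7.64 and 7.69 in controls. The groups were apart, with control replicate 1 the highest, and the difference was -1.14 ± 0.22 (adjusted p = 0.00467). DTYMK, the thymidylate kinase, had 10.18, 10.11 and 10.11 under the drug, against 11.77, 11.65 and 11.89 in controls. The 3 treated arrays lay within an SD of 0.0404 and below every control, and the difference was -1.63 ± 0.15 (adjusted p = 5.97e-06). DUT, the dUTPase, had 6.88, 6.75 and 6.74 in treated cells, against 7.40, 7.37 and 7.36 in controls. This was the smallest fall of the 6, with a difference of -0.59 ± 0.11 (adjusted p = 0.00515). Without palbociclib replicate 1 the differences were -1.15 for TK1, -1.66 for DTYMK and -0.63 for DUT, and all 3 were still called by limma.

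RRM2, the inducible subunit of ribonucleotide reductase, had the second largest fall, with levels of 5.80, 5.45 and 5.68 in treated RT112 cells against 7.69, 7.63 and 7.61 in controls. The difference was -2.0 ± 0.12 (adjusted p = 1.73e-07), the 130th lowest of all genes, and -2.08 without palbociclib replicate 1. DCK, the deoxycytidine kinase, had levels of 6.16, 5.95 and 5.87 under palbociclib, against 6.21, 6.08 and 6.10 in controls. Those groups overlapped, and the difference of -0.13 ± 0.12 was not called (adjusted p = 0.705, 95% interval -0.38 to 0.11). That interval holds no fall of DCK as large as that of DUT (-0.59), and a smaller change could not be told from none with 3 arrays per group. The DCK difference was -0.22 without palbociclib replicate 1.

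Among the 4 enzymes of UMP and CTP synthesis, CAD was called and UMPS and CTPS1 had all treated arrays below the controls. CAD, the enzyme of the first steps, had 6.98, 7.37 and 7.42 in treated RT112 cells, against 8.10, 8.06 and 8.05 in controls. It fell by 0.81 ± 0.14 on the log2 scale (adjusted p = 0.00248), and the difference without palbociclib replicate 1, the lowest of the treated arrays, was -0.67 ± 0.13 (adjusted p = 0.00517). UMPS, which completes UMP, had 7.81, 8.12 and 8.30 in treated cells and 8.35, 8.58 and 8.58 in controls. Its arrays did not overlap, but the difference of -0.43 ± 0.15 was not called (adjusted p = 0.11). CTPS1, the CTP synthetase, had 6.84, 7.87 and 7.67 under the drug, against 8.26, 8.26 and 8.62 in controls. The groups were apart and the spread in treated cells was wide (SD 0.546), and the difference of -0.92 ± 0.29 was not called (adjusted p = 0.0739). CTPS1 and UMPS were called lower after quantile normalization (-1.03 and -0.50) and with array weights (-0.59 and -0.33). Those settings also called more of all genes in RT112, 10.3% and 25.7%, against 8.48% in the main fit. Without palbociclib replicate 1, its lowest array, the CTPS1 difference was -0.61 ± 0.28 and that of UMPS -0.29 ± 0.14, and neither was called. DHODH, the mitochondrial dehydrogenase of the pathway, had 6.48, 6.24 and 6.09 in treated cells and 6.63, 6.35 and 6.26 in controls, which overlapped (difference -0.14 ± 0.15, adjusted p = 0.795, 95% interval -0.46 to 0.18). The DHODH difference was -0.25 without palbociclib replicate 1 and was not called.

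**Figure D2:**
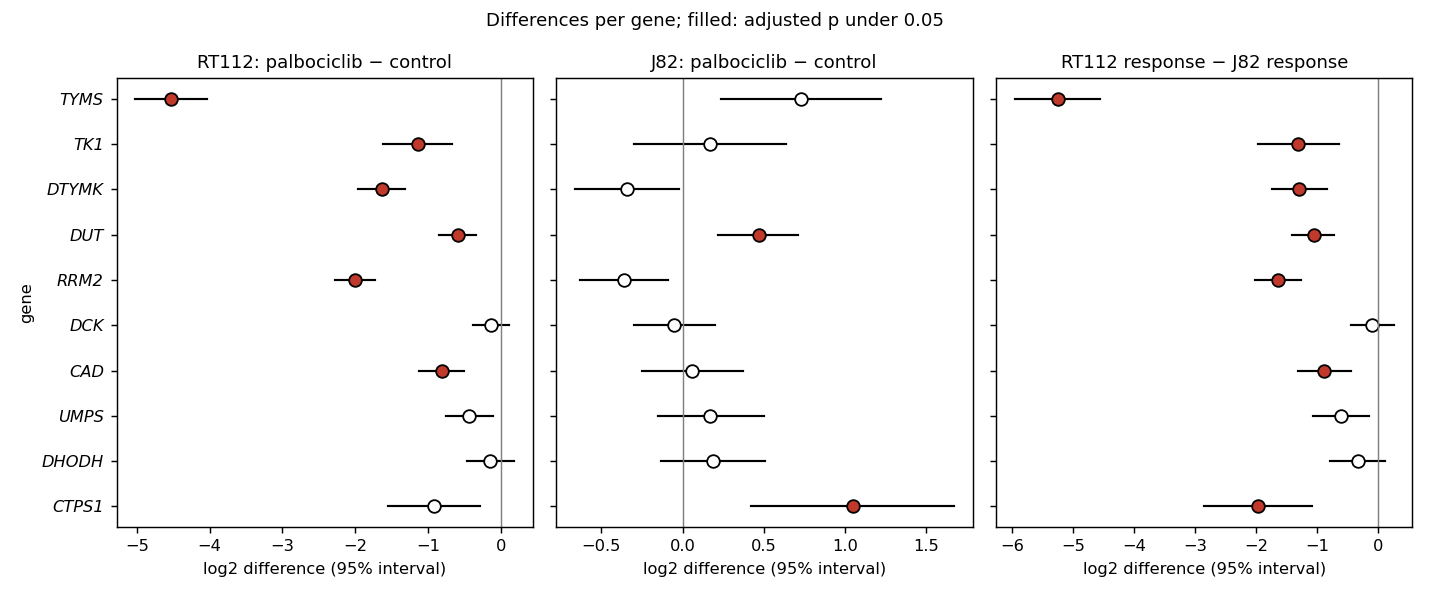
Log2 difference (x axis) of each enzyme gene (y axis) with its 95% interval for palbociclib minus control in RT112, the same in J82, and the RT112 response minus the J82 response; filled dots have an adjusted p under 0.05, and the x scales differ. In RT112 all dots lie below 0, from -4.53 for TYMS to -0.13 for DCK, and in J82 they lie between -0.36 for RRM2 and 1.05 for CTPS1.

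In J82 cells 2 of the 10 genes rose under palbociclib, DUT and CTPS1, and no gene was called lower, although RRM2 and DTYMK were lower on every treated array. The median difference over the 10 was 0.17, against 0.04 over all genes, and 8.18% of all genes were called, 5.4% higher and 2.78% lower. Of the 10 genes 5 had an unadjusted p under 0.05. The treated and control arrays did not overlap for 5 genes, 3 higher (TYMS, DUT and CTPS1) and 2 lower (DTYMK and RRM2). Of all genes 23.9% did not overlap, 16.1% with the treated arrays higher and 7.82% with them lower.

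CTPS1 had levels of 9.11, 9.97 and 10.31 in treated J82 cells, against 8.87, 8.79 and 8.58 in J82 controls. Replicates 2 and 3 were far above the controls and replicate 1 was close to them (SD 0.615 in treated cells). It rose by 1.05 ± 0.29 (adjusted p = 0.0412). DUT had 6.93, 6.99 and 7.15 in treated cells, against 6.71, 6.55 and 6.42 in controls, and rose by 0.47 ± 0.11 (adjusted p = 0.0218). Leaving out single arrays ended both calls. DUT was not called without J82 control replicate 2 (0.46, adjusted p = 0.0737), J82 control replicate 3 (0.39, adjusted p = 0.115) or J82 palbociclib replicate 3 (0.40, adjusted p = 0.0734). CTPS1 lost its call without any of 8 of the 12 arrays, with differences of 0.79 to 1.39 over all 12 omissions and adjusted p of 0.0509 to 0.178 by limma in those 8. The 8 were J82 control replicates 1, 2 and 3, J82 palbociclib replicates 2 and 3, and RT112 control replicates 1, 2 and 3. Neither gene was called with J82 fitted alone, where DUT had an adjusted p of 0.0823 and CTPS1 of 0.0857 by limma. With the replicate number fitted as a block, DUT was not called (adjusted p = 0.0581 by limma) and CTPS1 kept its call.

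TYMS in J82 stood at 13.01, 12.98 and 13.39 under palbociclib, against 12.76, 12.56 and 11.87 in controls. All treated arrays were above all controls, with control replicate 3 the lowest, and the difference of 0.73 ± 0.23 was not called (adjusted p = 0.0718). It was 0.91 and called without J82 control replicate 1 (adjusted p = 0.0423), and 0.46 without control replicate 3. RRM2 had 7.09, 7.11 and 7.38 in treated J82 cells, against 7.64, 7.49 and 7.54 in controls. DTYMK had 9.91, 9.75 and 9.99 in treated cells, against 10.43, 10.17 and 10.07 in controls. In these 2 genes the J82 groups were apart in the same direction as in RT112, with differences of -0.36 ± 0.12 (adjusted p = 0.103) and -0.34 ± 0.15 (adjusted p = 0.214). RRM2 was called lower in J82 after quantile normalization (-0.39, adjusted p = 0.0156 by limma) and with array weights (adjusted p = 0.0425). TK1 had 7.71, 7.11 and 7.66 in treated cells and 7.78, 7.24 and 6.94 in controls, which overlapped (0.17 ± 0.22, 95% interval -0.30 to 0.64). For DCK, CAD, UMPS and DHODH the J82 groups overlapped, and the differences were -0.05, 0.06, 0.17 and 0.19, with SEs of 0.12 to 0.15.

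The response of RT112 was lower than that of J82 for 7 of the 10 genes, tested as the difference of the 2 responses. None was higher. The labels give the dose only as the IC50, so the concentration may differ between the lines. Line and dose cannot be told apart in this contrast. Of all genes 4.57% were called in this contrast, 2.74% lower and 1.83% higher. The median over the 10 genes was -1.17, against -0.009 over all genes. TYMS showed the widest gap, with a response of -4.53 in RT112 and 0.73 in J82, a difference of -5.25 ± 0.32 (adjusted p = 1.06e-06), the 4th lowest of all genes. CTPS1 followed, at -1.97 ± 0.41 (adjusted p = 0.013). RRM2 differed by -1.64 ± 0.18 (adjusted p = 7.28e-05), although both lines had lower arrays under the drug. DTYMK differed by -1.29 ± 0.21 (adjusted p = 0.00233) and DUT, called in opposite directions in the 2 lines, by -1.05 ± 0.16 (adjusted p = 0.00153). TK1 (-1.31 ± 0.31, adjusted p = 0.0267) and CAD (-0.88 ± 0.20, adjusted p = 0.0234) were nearest to the threshold. TK1 was not called without any 1 of 6 arrays, which were J82 control 2 (-1.27), J82 control 3 (-1.12), J82 palbociclib 1 (-1.20), J82 palbociclib 3 (-1.22), RT112 control 1 (-1.16) and RT112 palbociclib 2 (-1.21). CAD was not called without any 1 of 5, which were J82 control 2 (-0.78), J82 control 3 (-0.86), RT112 control 1 (-0.86), RT112 control 2 (-0.88) and RT112 control 3 (-0.89). After a shift of the arrays to a common median 4 of the 7 were called, and TK1, CAD and CTPS1 (-1.99, adjusted p = 0.0597 by limma) were not. With all transcript cluster rows tested 5 were called, without TK1 and CAD. The other 3 genes were not called. UMPS differed by -0.60 (95% interval -1.06 to -0.15, adjusted p = 0.158), DHODH by -0.33 (-0.78 to 0.12) and DCK by -0.09 (-0.44 to 0.26). Without RT112 palbociclib replicate 1 the number called stayed at 7 and the TYMS difference was -5.11.

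**Figure D3:**
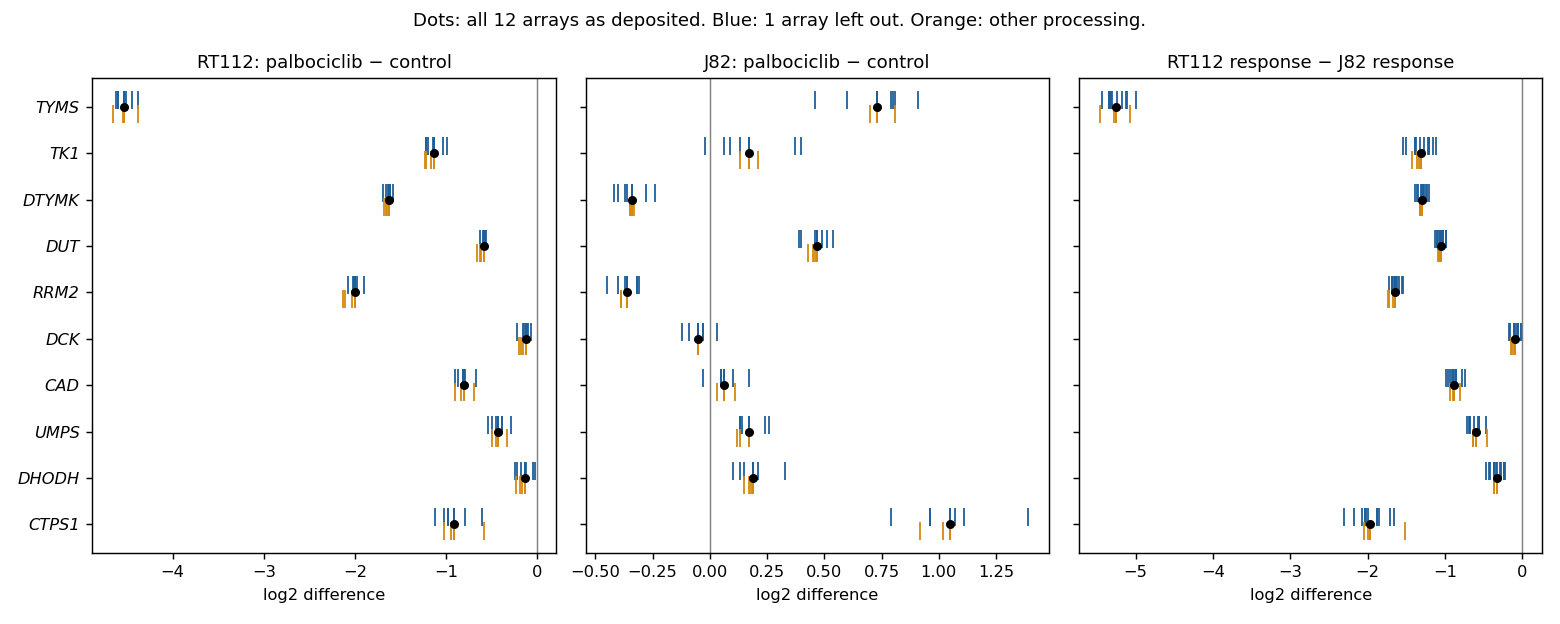
Log2 difference (x axis) of each enzyme gene (y axis) in the response of RT112, the response of J82 and the difference of the responses, with a black dot for all 12 arrays, blue ticks for fits with 1 array left out and orange ticks for other processing. The TYMS ticks stay between -4.65 and -4.38 in RT112, and the J82 ticks of CTPS1 spread from 0.79 to 1.39.

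Untreated cells of the 2 lines already differed in 6 of the 10 genes. DTYMK, UMPS, DUT and CAD were higher in RT112 controls than in J82 controls, and TYMS and DCK were lower. Over all genes 27.5% were called in this comparison, 12.8% higher and 14.7% lower, so 6 of 10 is to be read against a wide difference between the lines. The 6 called genes were also those whose control arrays did not overlap, as in 51.6% of all genes (29.2% higher and 22.4% lower). The TYMS control level was 10.98 ± 0.177 in RT112 and 12.4 ± 0.471 in J82 (SD, n = 3 each), a difference of -1.42 ± 0.23 (adjusted p = 0.000243). DTYMK averaged 11.77 ± 0.116 in RT112 and 10.22 ± 0.185 in J82 (difference 1.55 ± 0.15, adjusted p = 1.77e-06), and UMPS averaged 8.50 ± 0.132 and 7.48 ± 0.123 (1.02 ± 0.15, adjusted p = 1e-04). DUT was higher by 0.82, CAD by 0.78, and DCK was lower in RT112 at a difference of -0.54. RRM2 (0.09 ± 0.12) and DHODH (0.03 ± 0.15) were not called and their arrays overlapped, as did those of TK1 (0.49 ± 0.22, adjusted p = 0.123) and CTPS1 (-0.37 ± 0.29). TK1 was called without J82 control replicate 1 (0.72).

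Taking the 4 groups in order of level, TYMS was lowest in treated RT112, followed by control RT112, control J82 and treated J82, and the arrays of these groups did not overlap. RRM2 was lowest in treated RT112, then in treated J82, and its 2 control groups did not differ beyond their spread. For DTYMK, treated J82 (9.75 to 9.99) lay below treated RT112 (10.11 to 10.18) and control J82 (10.07 to 10.43), which overlapped, and control RT112 was the highest. DUT ran, low to high, through control J82, treated RT112, treated J82 and control RT112, without overlap. TK1 was lowest in treated RT112 (6.49 to 6.84), and its other 3 groups overlapped. UMPS was lowest in the 2 J82 groups, which overlapped, then in treated RT112 and in control RT112. CTPS1 was lowest in treated RT112 and highest in treated J82, and its control groups overlapped. CAD in treated RT112 (6.98 to 7.42) overlapped both J82 groups (7.28 to 7.39 treated, 7.09 to 7.51 control), and only control RT112 stood above them. DCK levels of both RT112 groups lay below both J82 groups, and those of DHODH overlapped in all 4.

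Once the mean of each line was subtracted, the 6 genes called lower in RT112 varied together over the 12 arrays. All 15 of their pairs had a Pearson r of at least 0.638, and DTYMK with RRM2 reached 0.986. Over all 45 pairs of the 10 enzymes, 24 had an r above 0.6, and the lowest was -0.241, for DCK with CTPS1. The arrays share 4 groups, so these values include the shift between treated and control cells and are a description only. The 6 genes were picked by that shift in RT112 on these same arrays, so high values of r among them were built in. Among all genes, those most like TYMS on this measure were CENPU (0.995), DTL (0.993) and HJURP (0.99). RRM2 was most like DNA2 (0.993), CLSPN (0.993) and CKAP2L (0.991), and DTYMK most like CKAP2L (0.995), AURKB (0.995) and TMPO (0.992). The pattern of DUT was nearest to RAD51C (0.964), PSMG1 (0.957) and NR2C2AP (0.954), and that of TK1 to SNRPB (0.967), SNTB2 (0.964) and NUCKS1 (0.962). CAD was nearest to KARS1 (0.966), POLD3 (0.964) and TGFBI (0.958), CTPS1 to RBBP4 (0.983), DNAJC10 (0.956) and NOL8 (0.953), and UMPS to GEMIN2 (0.94), RBBP7 (0.928) and SSRP1 (0.923). The values were lower for DHODH (LOC646999 at 0.917, NEFL at 0.909, SAC3D1 at 0.902) and, beyond its first match, DCK (TGM7 at 0.97, FRMD4B at 0.9, RFX8 at 0.884).

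The surrounding pathways are given by group, to be read against the 4.95% of all genes called higher and 3.53% called lower in RT112, and 5.4% and 2.78% in J82. Without RT112 palbociclib replicate 1 the RT112 calls named here held, except where stated. In the folate cycle, which supplies the cofactor of TYMS, 2 of 8 measured genes fell in RT112 and none rose. MTHFD1, a trifunctional folate enzyme, averaged 8.34 in treated and 10.13 in control RT112 (-1.79 ± 0.21, adjusted p = 5.53e-05), and SHMT1, the cytosolic serine hydroxymethyltransferase, fell by 0.80 ± 0.15. In J82, SHMT2, its mitochondrial counterpart, rose by 1.70 ± 0.18 (adjusted p = 7.52e-05) and no folate gene fell. The responses of MTHFD1 (-1.80 ± 0.29), SHMT1 (-1.16 ± 0.21) and SHMT2 (-1.51 ± 0.26) differed between the lines. Of 2 genes that act beside RRM2 on the dNTP pool, neither was called under the drug. RRM2B, the p53-inducible reductase subunit, differed by 0.31 ± 0.16 in RT112 and 0.05 ± 0.16 in J82, and SAMHD1, which degrades dNTPs, by -0.19 ± 0.22 and 0.34 ± 0.22. SAMHD1 set the lines apart before treatment, at 5.85 in RT112 controls and 12.04 in J82 controls (-6.19 ± 0.22, adjusted p = 5.68e-11). The RT112 value stands close to the median gene of those arrays, at 5.37 to 5.39.

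Among 11 measured salvage genes 1 rose in RT112 and 3 in J82, and none fell. The RT112 count of 1 is near the share over all genes. DGUOK, the mitochondrial deoxyguanosine kinase, rose in both lines, by 0.79 ± 0.17 in RT112 and 0.67 ± 0.17 in J82. UCK1, a uridine and cytidine kinase, rose in J82 (1.18 ± 0.16) as did the uridine phosphorylase UPP1 (0.79 ± 0.18), and their RT112 values were 0.15 and -0.22. Of 12 purine synthesis genes 3 fell in RT112, GMPS (-1.15 ± 0.15), PRPS1 (-1.07 ± 0.23) and PPAT (-0.83 ± 0.18), and the limma test called 0 in J82 (2 with an unadjusted p under 0.05). Among 8 genes, nucleotide kinases and CTPS2, the isoenzyme of CTPS1, limma called 0 in each line (1 in each with an unadjusted p under 0.05). CTPS2 differed by 0.19 ± 0.18 in RT112 and 0.07 ± 0.18 in J82. Of 11 genes of nucleotide breakdown and pool sanitising, NT5E (-1.07 ± 0.27) and DCTPP1 (-0.62 ± 0.17) fell in RT112 and DPYD, which degrades pyrimidines and fluorouracil, fell in J82 (-0.93 ± 0.16). NT5E was not called without RT112 palbociclib replicate 1 (-0.91, adjusted p = 0.0709 by limma). DPYD was also lower in RT112 controls, at 5.76, than in J82 controls, at 9.86 (-4.10 ± 0.16). The nucleoside transporter SLC29A1 fell in RT112 (-0.98 ± 0.12) and stood at -0.41 ± 0.12 in J82 (adjusted p = 0.0562), and no other of 7 transporters was called, although SLC29A3 was called lower in RT112 without palbociclib replicate 1 (-0.40). TYMSOS, a transcript of the opposite strand at the TYMS locus, was not called in either line. It differed by -0.15 ± 0.18 in RT112 and 0.21 ± 0.18 in J82, and was called lower in RT112 without palbociclib replicate 1 (-0.42 ± 0.09, adjusted p = 0.0137 by limma).

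**Figure D4:**
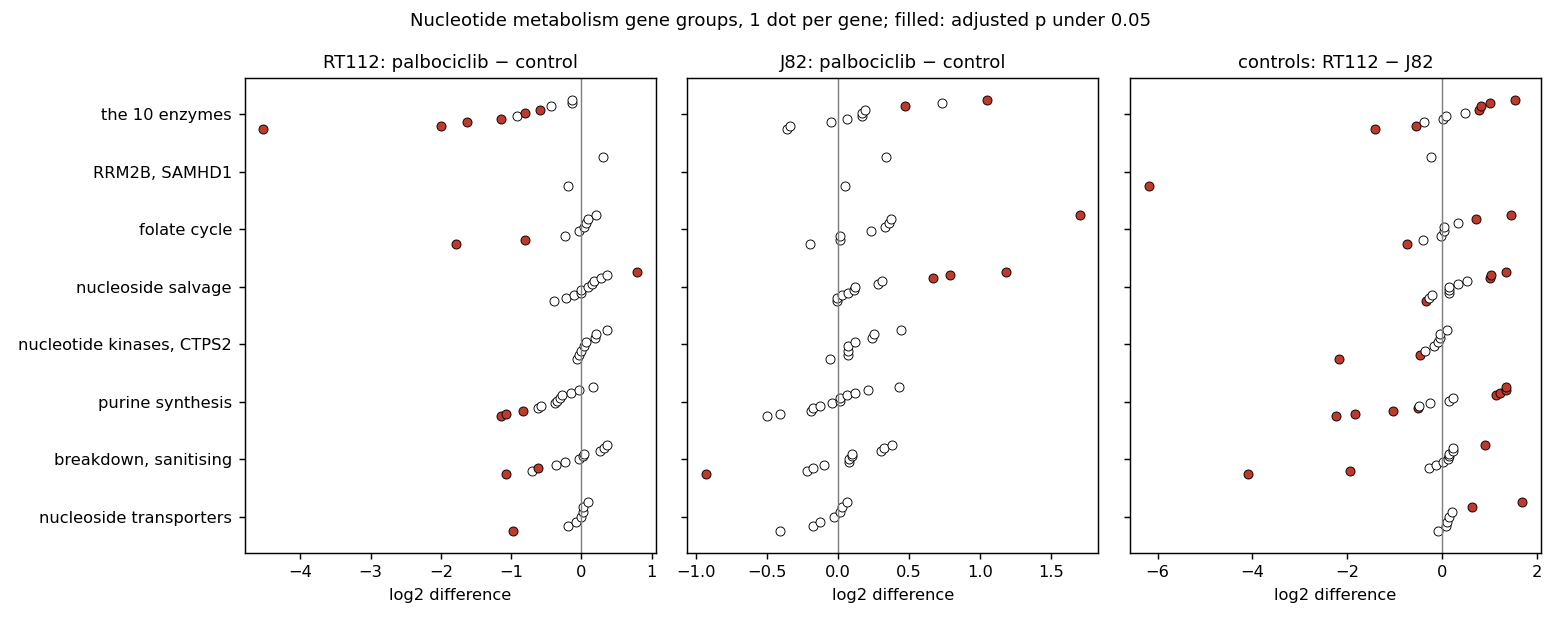
Log2 difference (x axis) of the 10 enzymes and of 7 other groups of nucleotide metabolism genes (y axis), 1 dot per gene, for palbociclib minus control in RT112, the same in J82, and RT112 controls minus J82 controls; filled dots have an adjusted p under 0.05. The 10 enzymes reach down to -4.53 in RT112, and SAMHD1 stands at -6.19 between the untreated lines.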

How the data were processed

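RNA of 3 dishes per group went onto Affymetrix whole-transcript arrays as biotinylated DNA, per the protocols in the labels. The authors deposited log2 summarised intensities, and the submitters' processing notes name RMA and Affymetrix Expression Console with no version. The build was not given in the sources used here. Of 70523 rows, 67528 are transcript clusters. The platform annotation gave 1 symbol to 23781 of them, several to 1543 and none here to 42204, and the row with the highest mean per symbol left 22465 genes. No 2 arrays were identical. The precision is limited by the number of arrays.

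The 4 group means over 12 arrays were estimated in limma 3.58.1 (R 4.3.3) with 8 residual degrees of freedom and a trended eBayes prior, and adjusted p-values are Benjamini-Hochberg values over 22465 genes. The procedure was tested on simulated data with 200 changed genes per line and independent noise. It recovered 81% of changes of 1 (log2) in RT112 and 86% in J82. For changes of 2 it recovered 100% and 98%, and it made 12 and 15 false calls. No shift of a whole array was simulated, so the outcome does not cover an array such as RT112 palbociclib replicate 1. The 10 genes, the lists of related genes, the motifs and the rule for named genes (all 10 members, up to 4 called genes per list, a fixed few such as RRM2B and TYMSOS, and the 3 genes most like each member) were chosen with earlier results of these data known. Of 69 genes in 7 lists 59 were measured; the other 10, and ENOSF1, were not analysed here.

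Replicate numbers are shared between treated and control dishes, and the labels do not say that they pair them. Alternatives were a replicate block, 2 further normalizations, a filter on dim genes, other choices of probe set, other variance priors, array weights, a minimum difference of 1, separate fits per line and the omission of each array.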

Additional observations from a re-analysis of the deposited data

Results flagged for a closer look

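For 7 of the 10 genes the response to palbociclib differed between the 2 lines by the test of the difference itself, RT112 minus J82. Of all genes 4.57% were called in this contrast, 2.74% of them lower and 1.83% higher as shares of all genes. The 7 genes were TYMS (-5.25), CTPS1 (-1.97), RRM2 (-1.64), TK1 (-1.31), DTYMK (-1.29), DUT (-1.05) and CAD (-0.88). TK1, CAD and CTPS1 were not called after a shift of the arrays to a common median, which left 4. TK1 and CAD were also not called with all transcript cluster rows tested, nor without any 1 of 6 and of 5 of the 12 arrays. In TYMS, DUT and CTPS1 the arrays of the lines moved in opposite directions without overlap between treated and control cells. Of all genes 8.26% lay lower without overlap in RT112 and 16.1% higher in J82, and the share that did both is not given here. TYMS in J82 and CTPS1 in RT112 were not called, and the J82 calls of DUT and CTPS1 ended when single arrays were left out. The control levels of TYMS, DTYMK, DUT and CAD also differed between the lines, and the part of this in the responses was not tested. As the dose is given only as the IC50, line and dose cannot be told apart in these differences.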

How the results depend on the processing

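Over 22 alternatives other than a minimum size, the 6 falls in RT112 kept their direction and their calls. When differences under 1 (log2) were not counted, 4 of them remained, TYMS, RRM2, DTYMK and TK1. The number called in RT112 was 8 after quantile normalization (10.3% of all genes called) and with array weights (25.7%), which added UMPS and CTPS1. It was 7 with dim genes left out (19.6% of the genes kept), which added CTPS1. In J82 the count of 2 became 1 with that minimum, 1 with the replicate block (DUT lost, adjusted p = 0.0581), 1 after a shift of all arrays to a common median, 0 with all transcript cluster rows tested and 0 with J82 fitted alone by limma (5 and 4 with an unadjusted p under 0.05). It became 3 after quantile normalization and with array weights, which added RRM2 as lower, and 3 with dim genes left out, which added TYMS as higher. It ranged from 0 to 2 when 1 array was left out. The difference of the responses had 4 genes called after the shift, where TK1 (-1.33), CAD (-0.90) and CTPS1 (-1.99) were lost, and 5 to 7 without 1 array. Between untreated lines 3 genes passed the minimum size. Values near 0 changed sign when 1 array was left out, over ranges of -0.02 to 0.40 for TK1, -0.12 to 0.03 for DCK and -0.03 to 0.17 for CAD in J82, and -0.08 to 0.11 for DHODH between untreated lines, which was -0.03 after the shift. Same-numbered dishes were not taken as pairs, as their deviations correlated at 0.0863, -0.193 and 0.173 in RT112 and 0.172, 0.188 and 0.0751 in J82. In J82 every treated array correlated best with the control of its own number, a hint from the data only, and the block changed no other call. Over all genes, 1905 were called in RT112 (1112 higher, 793 lower), 1054 after the shift (415 higher, 639 lower), 1108 with all rows tested, 595 past a difference of 1 and 5780 with array weights. Leaving out 1 array gave 1131 (without RT112 control replicate 2) to 2965 (without RT112 palbociclib replicate 1). The J82 total of 1837 became 1160 with all rows, 1045 alone, 535 past a difference of 1, and 1147 to 2416 without 1 array. The difference of the responses, 1027 in total, became 685 after the shift, 602 with all rows, 2384 with array weights, and 688 to 1517 without 1 array. Between untreated lines the total of 6183 became 2593 past a difference of 1. The cause of these changes was not tested.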
